A study of Mus musculus with 4 samples.

Results

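The 10 genes described here encode membrane proteins of the early secretory pathway and of intramembrane proteolysis: Ergic1, Ergic2 and Ergic3, then Nomo1 with its partners Ncln and Tmem147, and the signal peptide peptidase family of Sppl2a, Sppl2b, Sppl3 and Hm13. They were 10 of 55812 features in the deposited count table, found by their symbols in the mouse annotation for GRCm38 (Hm13 is listed there under its other symbol, H13). All 10 were among the 14701 genes that passed the filter on low counts. The set was selected on the measured difference between the groups: Ergic1, Nomo1 and Sppl2a were picked from these data as genes that were lower with Trps1 siRNA, and the other 7 were added as their paralogues or partners. The differences of the 10 genes are therefore given as a description, with standard errors and without p-values.

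RNA was sequenced from primary mouse Leydig cells, the testosterone-producing cells between the seminiferous tubules, labelled as coming from a 6-month-old mouse. The cells received either Negative siRNA, the control small interfering RNA, or Trps1 siRNA, which targets the messenger RNA of the GATA-type transcriptional repressor Trps1, with 2 samples per group. No dose, duration or siRNA sequence is given in the sources used here. Nothing says whether the 2 samples of a group were separate cultures or animals. The standard errors and tests given here rest on the spread between the 2 samples of a group, estimated in part over all genes. That spread may be purely technical. Libraries held 17844125 to 25852898 counted reads. Trps1 itself was at 38.1 and 42.2 CPM (reads of a gene scaled to the size of its library) with Negative siRNA and at 23.5 and 30.1 CPM with Trps1 siRNA. Of 7 Leydig cell markers 5 rose, and their summed level was 3957 and 4241 CPM in the control against 5893 and 6339 CPM. Markers of macrophages were also present in every library, with a sum of 2373 to 3519 CPM, and those of endothelial cells, Sertoli cells and smooth muscle summed to between 36.99 and 154.7 CPM. The smooth muscle markers Acta2 and Myl9 were called lower with Trps1 siRNA and Mylk higher (edgeR). Of 8 germ cell markers Ddx4, Sycp3, Prm1, Prm2 and Tnp1 did not pass the filter, and the sum of 114.3 to 156.8 CPM came mostly from Zbtb16 and from Kit, which Leydig cells also express, both called higher with Trps1 siRNA.

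Proteins leave the endoplasmic reticulum (ER) in vesicles that pass an intermediate compartment, the ERGIC, on the way to the Golgi. The ERGIC proteins are relatives of the yeast cargo receptors Erv41 and Erv46 and cycle between these compartments. Nomo1, Ncln (nicalin) and Tmem147 form a complex in the ER membrane that joins the Sec61 channel when proteins with many membrane spans are inserted. The signal peptide peptidases are aspartyl proteases that cut proteins within the membrane: Hm13, the signal peptide peptidase itself, works in the ER, Sppl3 in the Golgi, Sppl2a in late endosomes and lysosomes, and Sppl2b at the cell surface and in endosomes.

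The 3' UTR (the stretch of a messenger RNA after the stop codon) of Ergic1, Nomo1 and Sppl2a held a sequence that none of the other 7 genes had there. It is GAGTTGAA, a word of 8 bases taken from an earlier look at these same data as one frequent in genes lower with Trps1 siRNA, so its presence is not independent of the differences given further on. Annotated transcripts were searched on the sense strand for GAGTTGAA, for the overlapping 7-base words GAGTTGA and AGTTGAA that it contains, and for CGGAGAA, a word of 7 bases from the same source. The sites are shown because they separate the 3 genes from their relatives. Each line gives 30 bases from GENCODE M21 transcripts (GRCm38), 5' to 3' on the strand of the gene, with the matching bases in capitals.
Ergic1, 8-base match: ggcatgcgtatGAGTTGAAatcccactttt
Nomo1, 8-base match: atttattttctGAGTTGAAgataatttatt
Sppl2a, first 8-base match: aatcaaagtttGAGTTGAAaattgggaaca
Sppl2a, second 8-base match: aatagataccaGAGTTGAAaatttgtctct
Ergic1, 7-base match: cctttttatatGAGTTGAttcttattgtgt
Sppl2a, 7-base match: cctagcaacatAGTTGAAaatacctccata
Sppl2b, 7-base match: atgccaagatgGAGTTGAgagcgtgggcca

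All of these sites lie in the last exon of their gene. The Ergic1 match with its flanks spans chr17:26656762-26656791 on the plus strand, in exon 10, and starts 1599 bases into a 3' UTR of 1757 bases. The Nomo1 match spans chr7:46083934-46083963 on the plus strand, in exon 31, and starts at base 211 of a short 3' UTR of 478 bases. In Sppl2a the sites span chr2:126894014-126894043 and chr2:126891758-126891787 on the minus strand, both in exon 15, and start at bases 180 and 2436 of a 3' UTR of 3821 bases. The lone match of Sppl2b, chr10:80868069-80868098 on the plus strand in exon 13, has the first 7 bases of the word and lacks the last.

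**Figure D1:**
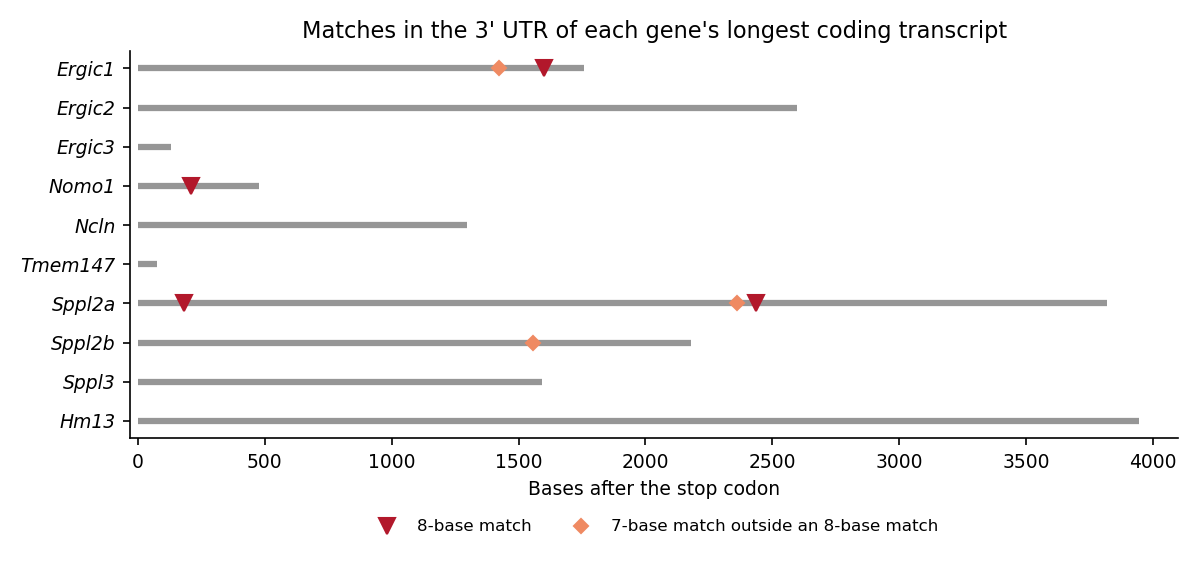
The 3' UTR of the longest coding transcript of each of the 10 genes, drawn to scale in bases after the stop codon (x axis), with triangles at 8-base matches and diamonds at 7-base matches that are not part of one. Triangles stand in Ergic1, Nomo1 and, at 2 places, Sppl2a, and Hm13, with the longest 3' UTR of the 10, has no mark.

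Long 3' UTRs were found on both sides. Hm13 with 3946 bases, Ergic2 with 2598, Sppl3 with 1593 and Ncln with 1297 held neither the 8-base word nor either 7-base word within it, and nor did Ergic3 and Tmem147, whose longest 3' UTRs have 129 and 79 bases. None of the 10 held CGGAGAA in the 3' UTR, and none held GAGTTGAA in its coding sequence. Over all 13005 tested genes with an annotated 3' UTR, 3.21% held GAGTTGAA, another 6.82% held GAGTTGA without it and 7.94% AGTTGAA without it. Of Trps1, the targeted gene, the longest coding transcripts hold GAGTTGAA at 2 places in the coding sequence and at 0 places in the 3' UTR. Transcripts of Trps1 with a shorter coding sequence hold it there at 1 or 0 places. No share of all tested genes is given for coding sequences. A match is a string of letters, and whether any RNA pairs with these sites was not tested.

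Ergic1 encodes a small cycling membrane protein of the ERGIC (chromosome 17, 26561489 to 26656934). Its level was 314.1 and 311.2 CPM with Negative siRNA, against 154.3 and 156.6 CPM after Trps1 siRNA. Both Trps1 siRNA samples lay far below both control samples, and the samples within a group were close together. With Trps1 siRNA it was at 49.7% of the control level, a log2 fold change of -1.01 ± 0.06 (standard error, n = 2 per group), from 2754 to 7965 reads per sample.

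Its paralogues did not share this difference. Ergic2 (chromosome 6), which forms a complex with Ergic3, was at 27.6 and 25.7 CPM with Negative siRNA and at 29.3 and 29.7 CPM with Trps1 siRNA. Ergic3 (chromosome 2), the relative of yeast Erv46, was at 456.6 and 454.4 CPM against 447.3 and 407.4 CPM. Ergic2 was thus slightly higher and Ergic3 slightly lower in the Trps1 siRNA samples, with log2 fold changes of 0.15 ± 0.09 and -0.09 ± 0.06, neither past the threshold of the test used over all genes (edgeR, Benjamini-Hochberg adjusted p under 0.05). The ratio of Ergic1 to Ergic2 CPM was 11.4 and 12.1 in the control and 5.27 and 5.28 with Trps1 siRNA. Against Ergic3 the ratio went from 0.688 and 0.685 to 0.345 and 0.384. Both ratios separated the groups without overlap, but Ergic1 was picked for being lower, so this adds nothing further. In translated coding sequence Ergic1 is 39.7% identical to Ergic3 over 282 aligned residues and 29.8% identical to Ergic2 over 275, and it is the shortest of the 3 with 290 residues.

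Nomo1 encodes a large ER membrane protein of 1214 residues (chromosome 7, 46033698 to 46084212). It was at 133.1 and 136.0 CPM with Negative siRNA and at 68.3 and 63.6 CPM with Trps1 siRNA. The groups did not overlap, and the Trps1 siRNA samples stood at 49.0% of the control, a log2 fold change of -1.03 ± 0.06 (standard error, n = 2 per group). It had the lowest fold change of the 10 genes, rank 82 from the lowest among all 14701 tested genes.

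The other subunits of the Nomo1 complex were nearly level. Ncln (chromosome 10), which binds Nomo1 in the ER membrane, was at 136.7 and 134.1 CPM in the control samples and at 140.0 and 146.7 CPM with Trps1 siRNA. Tmem147 (chromosome 7), the third subunit, was at 142.2 and 138.2 CPM against 133.1 and 123.9 CPM. Over the control samples the 3 genes of the complex thus ranged from 133.1 to 142.2 CPM, and with Trps1 siRNA Nomo1 lay apart from both partners. The log2 fold changes of the partners were 0.08 ± 0.06 and -0.13 ± 0.06, neither past the threshold. The ratio of Nomo1 to Ncln CPM was 0.973 and 1.01 in the control samples and 0.488 and 0.433 in the others, and that to Tmem147 was 0.936 and 0.984 against 0.513 in both Trps1 siRNA samples.

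Further components that work with the complex were looked at by their role, outside the rule for named genes and after the values of their list had been computed. Ccdc47, a chaperone of membrane insertion with a 7-base match in its 3' UTR, had a log2 fold change of 0.09 ± 0.06. Tmco1, which joins the same translocon, had one of 0.07 ± 0.06, and Sec61a1, the channel subunit, one of -0.03 ± 0.06, and none of the 3 passed the threshold. Wdr83os, the partner of Ccdc47, fell from 16.3 and 15.0 CPM to 12.0 and 10.4 CPM, a level of 71.6% (edgeR log2 fold change -0.48 ± 0.13 with an adjusted p of 0.0144). The call of Wdr83os did not hold with DESeq2 (adjusted p = 0.0637), without sample 1 of Negative siRNA (0.0787) or without sample 2 of Trps1 siRNA (0.194).

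Sppl2a encodes the lysosomal protease of the signal peptide peptidase family (chromosome 2, 126890391 to 126933235). It was at 198.2 and 194.9 CPM with Negative siRNA and at 108.9 and 110.6 CPM with Trps1 siRNA. The groups did not overlap, and the gap between them was many times that between samples of a group. The level with Trps1 siRNA was 55.9% of the control, a log2 fold change of -0.84 ± 0.06 (standard error, n = 2 per group).

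Sppl2b (chromosome 10), the closest relative of Sppl2a with 45.6% identical residues over 511 aligned, was at 27.6 and 28.2 CPM in the control samples and at 25.8 and 27.4 CPM with Trps1 siRNA. Sppl3 (chromosome 5), the Golgi protease that releases glycosyltransferases, was at 64.4 and 61.4 CPM against 65.9 and 69.3 CPM. Hm13 (chromosome 2), the ER protease that clears signal peptides, was at 254.1 and 249.7 CPM against 238.6 and 234.7 CPM. The 3 genes differed little between the groups beside Sppl2a, with log2 fold changes of -0.07 ± 0.09, 0.11 ± 0.07 and -0.09 ± 0.06, none past the threshold. Sppl2b, which holds a 7-base match, was the nearest to 0 of the 10 genes. The ratio of Sppl2a to Hm13 CPM was 0.780 in both control samples and 0.457 and 0.471 with Trps1 siRNA, and that to Sppl2b went from 7.18 and 6.91 to 4.22 and 4.04. Residues of Sppl2a are 29.5% identical to those of Sppl3 over 336 aligned and 28.5% to those of Hm13 over 351.

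**Figure D2:**
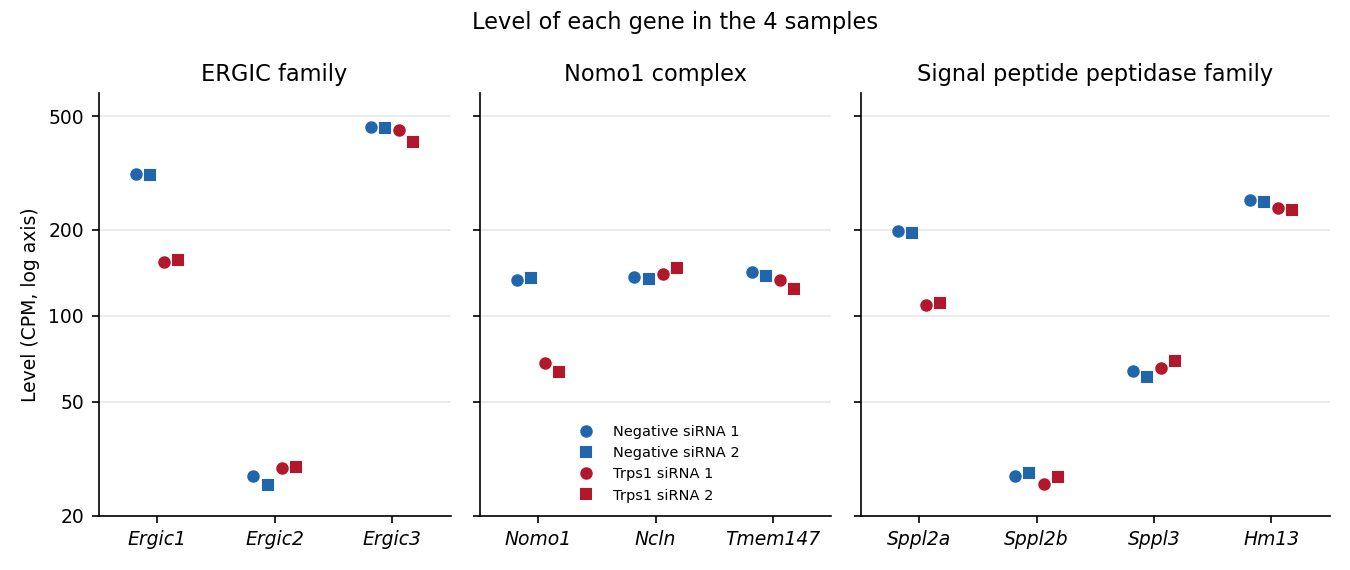
Level of each of the 10 genes in CPM on a log axis (y axis), by family, with blue for Negative siRNA and red for Trps1 siRNA and a circle or square for samples 1 and 2. The red points of Ergic1 (154.3 and 156.6 CPM), Nomo1 (68.3 and 63.6) and Sppl2a (108.9 and 110.6) stand well below the blue ones, whereas those of the other 7 genes are close to them.

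Of the 10 genes, 3 were past the threshold, all of them lower, and 7 were not, beside 11.2% of all 14701 tested genes called in either direction, 6.00% lower and 5.24% higher. Since the 3 were chosen on this difference, the count supports nothing further. For the 7 relatives and partners the log2 fold changes ran from -0.13 to 0.15, 3 above 0 and 4 below, with a median of -0.07 beside 0.00 over all tested genes. At an unadjusted p under 0.05 the edgeR test passed 1 of these 7, Tmem147, and with adjustment DESeq2 and voom each called 0 of them. The samples of the 2 groups did not overlap in any of the 10 genes, which also held for 52.2% of all tested genes. With 461 to 11632 reads for each gene in each sample, the standard errors of these log2 fold changes were between 0.06 and 0.09. The authors' deposited table of 780 genes lists 3 of the 10, with log2 fold changes of -1.01 for Ergic1, -1.03 for Nomo1 and -0.84 for Sppl2a. That table compares the same 2 groups of this series, so its values are not independent of those given here.

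**Figure D3:**
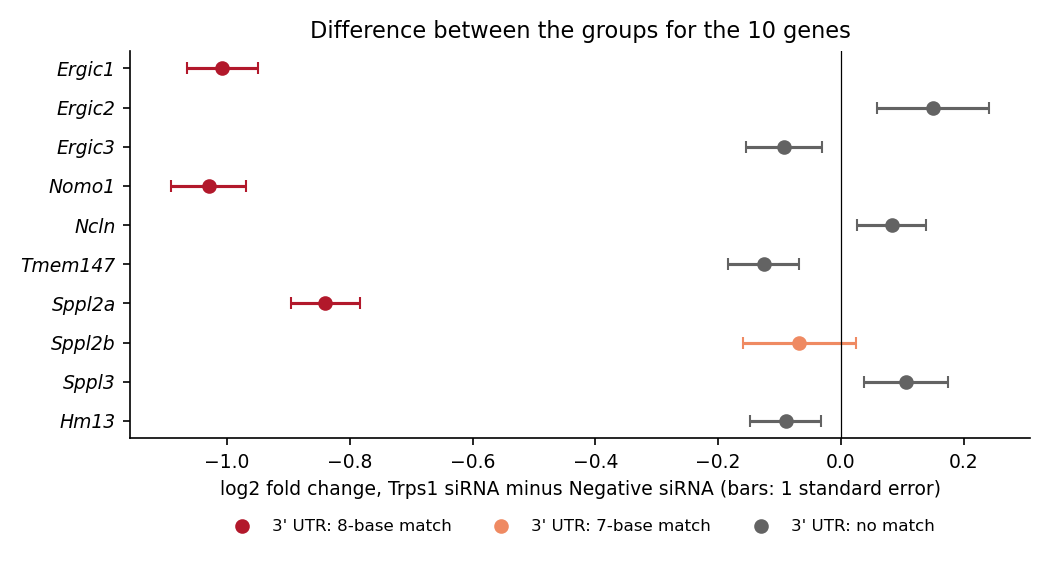
Log2 fold change of the 10 genes, Trps1 siRNA minus Negative siRNA (x axis), with bars of 1 standard error from the edgeR fit (n = 2 per group) and colour for the match in the 3' UTR. The 3 genes with an 8-base match lie between -1.03 and -0.84, and the other 7, including Sppl2b with a 7-base match, between -0.13 and 0.15.

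Levels between genes were compared per kilobase of exon (CPM divided by the joined length of a gene's annotated exons). In the control samples Ergic3 was highest at 214.7 ± 0.72 (SD, n = 2) CPM per kilobase, followed by Tmem147 at 126.1 ± 2.57, Ncln at 39.1 ± 0.53, Ergic1 at 35.2 ± 0.23 and Hm13 at 28.4 ± 0.36. Sppl2a and Nomo1 came next at 22.7 ± 0.28 and 22.7 ± 0.35, and they were the one pair of neighbours in this order whose control samples overlapped. The lowest 3 were Sppl3 at 9.46 ± 0.32, Sppl2b at 5.93 ± 0.09 and Ergic2 at 3.96 ± 0.20 (SD, n = 2). With Trps1 siRNA the order on this exon scale changed at 1 place, where Ergic1, then at 17.5 CPM per kilobase, fell behind Hm13 at 26.6.

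The joined exons of Ergic1 have 8888 bases and its longest coding transcript 2754, so its level per length depends on which is used. Per kilobase of the longest coding transcript, a choice made after seeing the data, Ergic1 was at 113.5 CPM in the control and 56.4 CPM with Trps1 siRNA. It held rank 3 of the 10 in both groups. On this scale other ranks changed from the control to Trps1 siRNA. Sppl3 went from rank 8 to 6, Sppl2a from 6 to 7 and Nomo1 from 7 to 8, and Ncln (5 to 4) and Hm13 (4 to 5) changed places. On the exon scale Ergic1 made up 13.9% and 13.8% of the summed level of the 3 ERGIC genes in the control samples and 7.46% and 8.23% with Trps1 siRNA, and on the transcript scale 25.2% in both control samples and 14.4% and 15.8%. Ergic3 supplied most of the family on either scale. For Nomo1 the share of its complex was 11.8% and 12.3% against 6.71% and 6.51% on the exon scale. Sppl2a was 34.1% and 34.2% of the signal peptide peptidase family in the control samples and 22.9% and 23.0% with Trps1 siRNA, and the summed level of that family was 67.0 and 65.8 against 54.8 and 55.4 CPM per kilobase. Hm13 had the largest share of the family in every sample.

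Genes with the same word were then set beside the 3. Of 417 tested genes whose 3' UTR held GAGTTGAA, 19.4% were called lower and 3.60% higher, with a median log2 fold change of -0.09. Of the 10669 genes with neither the 8-base word nor a 7-base part of it, 5.58% were called lower and 5.88% higher, with a median of 0.00. For GAGTTGA alone 12.1% of 887 genes were called lower, and for AGTTGAA alone 7.46% of 1032. Few of its holders differed as much as Ergic1, Nomo1 and Sppl2a: 36.0% had a log2 fold change at or above 0, and 9 of the 417 lay below Sppl2a. Read from the other side, 130 tested genes with a 3' UTR had a log2 fold change of -0.8 or lower, and 11 of them held GAGTTGAA (8.46%, beside 3.21% of all tested genes with a 3' UTR). Among the 10477 that averaged 5 CPM or more, 23 lay as low and 8 of these held it (34.8%, beside 3.28%), but 3 of the 8 are Ergic1, Nomo1 and Sppl2a, which were picked for being low. These shares come from the data in which the word was found and are a description. CGGAGAA, absent from the 3' UTRs of the 10 genes, was held by 375 genes, of which 17 were called lower and 60 higher. Over all tested genes with a 3' UTR, 6.61% were called lower and 5.53% higher. Holders of CGGAGAA were thus called higher more often than all these genes and lower less often, the reverse of GAGTTGAA. Their median log2 fold change was 0.10, beside 0.00 over all tested genes with a 3' UTR. CGGAGAA came from the same source as GAGTTGAA, so these values are also a description.

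**Figure D4:**
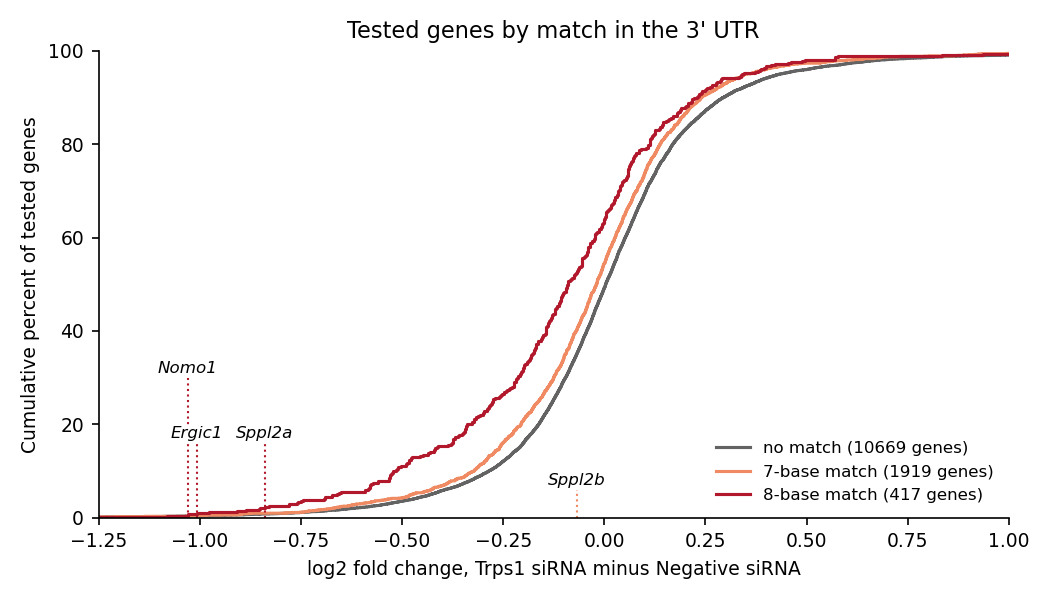
Cumulative percent of tested genes (y axis) by log2 fold change, Trps1 siRNA minus Negative siRNA (x axis), for 10669 genes without a match, 1919 with a 7-base match and 417 with an 8-base match in the 3' UTR. The curve of 8-base matches runs to the left of the others with a median of -0.09, and the dotted lines of Ergic1, Nomo1 and Sppl2a stand in its far left tail; the ends of the curves beyond the axis are not drawn.

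The genes whose values over the 4 samples were most like those of the 3 were sought among 10345 genes, by the distance between log2 CPM centred on each gene's mean over the 4 samples. Ergic1 and Nomo1 were each other's nearest gene, at a distance of 0.096. Bdh1, a mitochondrial ketone body dehydrogenase, was among the nearest 3 of Ergic1, of Nomo1 and of Sppl2a, and went from 35.6 and 37.1 CPM to 19.5 and 19.6 CPM. The others were Angel1 for Ergic1, Igfbp4, which binds insulin-like growth factors, for Nomo1, and Col15a1, a basement membrane collagen, and the cytokine Il34 for Sppl2a. Of these 5 genes outside the set, Angel1 holds GAGTTGAA in its 3' UTR, Bdh1, Igfbp4 and Col15a1 hold GAGTTGA alone, and Il34 none of the words. Of all tested genes with a 3' UTR, 3.21% hold GAGTTGAA and 6.82% GAGTTGA alone. The words were taken from genes lower in these same data, so finding them in genes chosen for like values supports nothing further. With 2 samples per group, likeness over 4 values mostly says that the fold changes were of like size.

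Over the pathway lists 16 of 143 tested genes, each with an annotated 3' UTR, were called (11.2%), the same share as over all tested genes (11.2%). In the lists 7.69% were called lower and 3.50% higher, beside 6.61% and 5.53% of all tested genes with a 3' UTR. Transport between ER and Golgi was tested in 64 genes, of which 4 rose, 4 fell and 56 were not past the threshold (edgeR adjusted p under 0.05), with a median log2 fold change of 0.03 beside 0.00 over all genes. Arf1, the GTPase that starts COPI coat assembly, rose from 285.9 to 457.7 CPM in the group means (log2 fold change 0.68 ± 0.06, edgeR adjusted p = 1.14e-08). Lman1, the ERGIC cargo receptor known as ERGIC-53, rose to 119% of the control (0.26 ± 0.06 on the log2 scale, adjusted p = 0.00317 by edgeR), and Sec24d, a cargo-binding COPII subunit, likewise rose to 119%. The call of Lman1 was lost without sample 1 of Negative siRNA (edgeR adjusted p = 0.0862), and that of Sec24d without sample 2 of Trps1 siRNA (0.109). Preb, the exchange factor that starts COPII assembly, with GAGTTGA in its 3' UTR, fell to 81.3% (edgeR adjusted p = 0.00125). In this list 2 genes held the 8-base word without being lower: Arcn1, a COPI coat subunit, was at 249.2 and 257.4 CPM in the control samples and 249.2 and 258.7 CPM with Trps1 siRNA, and Sec31b, a COPII coat subunit with few reads, had a log2 fold change of 0.37 ± 0.20 that did not pass the test. The number of called genes in this list was 5, 4 and 4 without sample 1 of Negative siRNA, sample 2 of Negative siRNA and sample 2 of Trps1 siRNA.

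Of 33 tested genes of the Sec61 channel, its partners and signal recognition, 2 fell and 31 were not called, with a median of -0.02. Beside Wdr83os this was Emc9, a subunit of a membrane insertase, which fell to 75.3% (-0.41 ± 0.10 on the log2 scale, adjusted p = 0.00696 by edgeR), a call lost without sample 1 of Negative siRNA (0.0585) and in the fit lacking Trps1 siRNA sample 2 (0.0849). Without sample 1 of Negative siRNA, or without sample 2 of Trps1 siRNA, 0 genes of this list were called, and without sample 1 of Trps1 siRNA 4 were. Of 17 genes of signal peptidase and oligosaccharyltransferase, which cut off signal peptides and attach glycans, 3 fell and 14 were not called, with a median of -0.09. Magt1 fell to 76.4% of the control, the signal peptidase subunit Spcs3 to 82.8% and the oligosaccharyltransferase subunit Rpn2 to 84.8% (edgeR adjusted p = 7.30e-04, 0.00294 and 0.00920). The 3' UTR of Magt1 holds GAGTTGA, and those of Spcs3 and Rpn2 hold AGTTGAA. The call of Rpn2 was lost without either Negative siRNA sample (edgeR adjusted p = 0.0560 and 0.0502) and without sample 2 of Trps1 siRNA (0.0633), and that of Spcs3 without sample 2 of Negative siRNA (0.0756). In this list 1 gene was called without sample 2 of Negative siRNA and 5 without sample 1 of Trps1 siRNA.

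Among 16 tested intramembrane proteases outside the signal peptide peptidases, with the subunits of gamma-secretase, 1 rose, 2 fell and 13 were not called. Psen2, a gamma-secretase protease and a distant relative of Sppl2a, fell from 265.8 and 273.5 CPM to 221.6 and 218.6 CPM, that is to 81.6% (-0.29 ± 0.06 on the log2 scale, adjusted p = 0.00102 by edgeR), without overlap between the groups. The rhomboid-like Rhbdd2 fell to 75.3% (edgeR adjusted p = 0.00125), with GAGTTGA in its 3' UTR, and the rhomboid protease Rhbdd1 rose to 119% (edgeR adjusted p = 0.0165). The call of Rhbdd1 was lost with DESeq2 (adjusted p = 0.0677), without sample 1 of Negative siRNA (edgeR, 0.121) and without sample 2 of Trps1 siRNA (0.189).

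A list drawn up as substrates of signal peptide peptidases, not each of them an established one, held 13 tested genes. Of these edgeR, DESeq2 and voom each called 0, with 0 at an unadjusted edgeR p under 0.05 and a median log2 fold change of -0.07. Cd74, the invariant chain of MHC class II that Sppl2a clears, was low, with group means of 8.83 and 7.09 CPM and a log2 fold change of -0.33 ± 0.16. Itm2b, a substrate of Sppl2a and Sppl2b, was at 1907 and 1904 against 1845 and 1757 CPM, and Mgat5 and B4galt1, glycosyltransferases released by Sppl3, had log2 fold changes of -0.07 ± 0.10 and 0.10 ± 0.06. Transcript counts do not measure cleavage of these proteins. Over all 143 genes of these lists with a 3' UTR, 4 of 11 with GAGTTGA alone were called lower, beside 12.1% of all tested genes of that class, and 3 of 10 with AGTTGAA alone, beside 7.46%. Of those with GAGTTGAA it was 0 of 2, beside 19.4%, and of those with none of these words 4 of 120, beside 5.58%. The words were taken from genes lower in these same data, so these counts support nothing further.

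**Figure D5:**
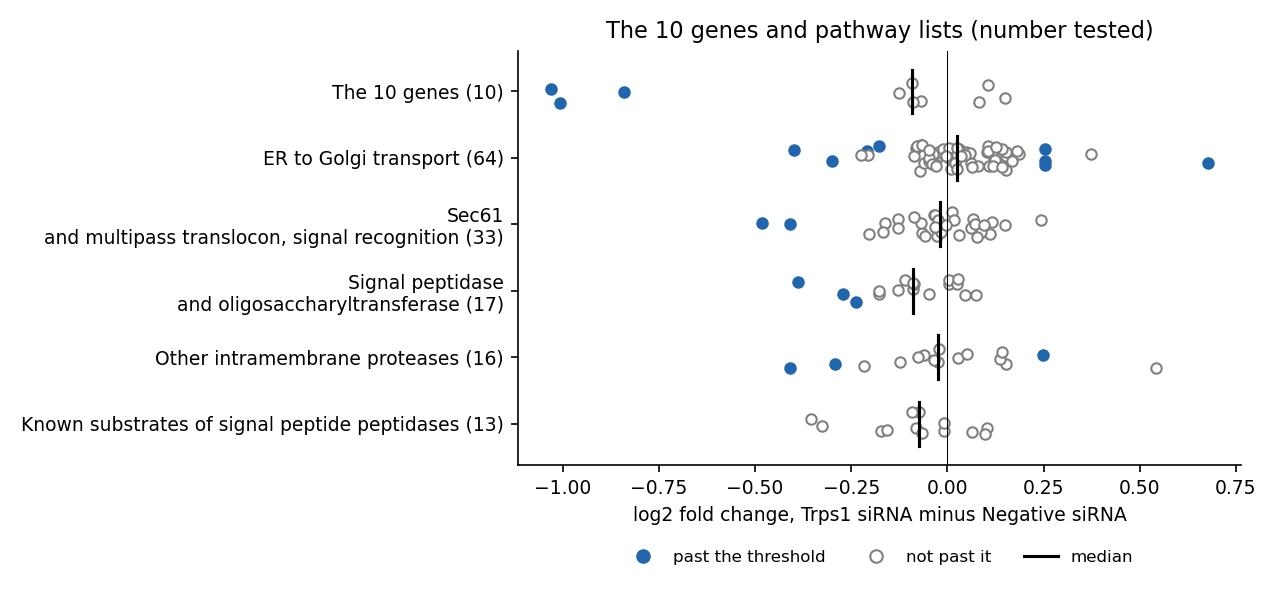
Log2 fold change (x axis) of the 10 genes and of the tested genes in each pathway list, with filled points past the threshold (edgeR adjusted p under 0.05), open points not past it and a black bar at the median, and the number tested in parentheses. Ergic1, Nomo1 and Sppl2a stand left of every gene in the lists, the lowest of which lies at -0.48.

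Markers of macrophages, cells that also express Sppl2a, were lower with Trps1 siRNA. Of 18 such markers 10 fell and 0 rose, and their summed level was 3519 and 3474 CPM in the control samples and 2982 and 2373 CPM with Trps1 siRNA. Sppl2a was at 198.2 and 194.9 CPM in the same control samples and at 108.9 and 110.6 CPM with Trps1 siRNA. In bulk RNA, fewer cells of a type and less RNA per cell cannot be told apart, and the part of macrophages in the level of Sppl2a was not tested. Ergic1 shares 11 bases of exon with Dusp1 on the opposite strand, and no source used here says whether reads were counted by strand. Dusp1, an immediate early phosphatase, was at 250 and 232 CPM in the control samples and 211 and 202 CPM with Trps1 siRNA. Ergic2 shares 837 exon bases with Far2, which had 2 to 15 reads per sample, Sppl3 shares 607 with Gm10401, which had 0 reads in each sample, and Hm13 shares 760 with a long non-coding RNA gene that was not analysed here. Nomo1, Sppl2a, Ergic3, Ncln, Tmem147 and Sppl2b share no exon bases with another annotated gene.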

How the data were processed

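The authors deposited raw read counts per gene for 4 samples. Per the submitters' processing notes, HISAT2 and featureCounts were used with GRCm38 (mm10); tool versions, the strand setting and the treatment of multiply aligned reads were not given in the sources used here. Their second table gives, per the file headers, a mean signal per group, a log2 fold change and p-values for 780 genes; its test is not given.

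GENCODE M21 (GRCm38) supplied the gene models and the transcript bases. Counts were analysed with edgeR 4.0.16 in R 4.3.3: filterByExpr with a minimum count of 10, TMM, glmQLFit with robust=TRUE and glmQLFTest on the group, with 2 residual degrees of freedom and Benjamini-Hochberg adjustment over 14701 genes. A gene with an adjusted p under 0.05 was called. Each standard error is |log2 fold change|/√F. The variance behind F is drawn in part from all tested genes, so this error is not the spread of that gene's own samples alone. The fit was run on simulated counts with the same dispersion for every gene, which checks its working and not the calls made in these samples. The counting depth limits precision for genes with few reads. Protein identity was planned on RefSeq proteins, which were not used here; GENCODE coding sequences were translated and aligned globally with BLOSUM62, and identity is over aligned residues.

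The 10 genes, the pathway and marker lists and the searched words were chosen with earlier results of these data known. Named genes are the 10, Trps1, up to 4 genes per pathway list with the smallest p among those called, and the 3 genes nearest to Ergic1, Nomo1 and Sppl2a among tested genes averaging 5 CPM or more and with a symbol that is no clone or pseudogene name (log2 CPM with a prior count of 2); genes named for their role beyond this were chosen after their values were seen. Alternatives were RLE size factors, library totals, no filter, a filter at a mean of 5 CPM, the DESeq2 1.42.0 test, voom of limma 3.58.1, no robust estimation, a replicate block and each sample left out.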

Additional observations from a re-analysis of the deposited data

How the results depend on the processing

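Under 12 alternative settings the log2 fold changes of Ergic1, Nomo1 and Sppl2a stayed between -1.08 and -0.83 and past the threshold, and those of the other 7 genes between -0.18 and 0.20 and short of it, each with its sign; 3 of the 10 were called in every setting. All of these settings refit the counts in which Ergic1, Nomo1 and Sppl2a were picked for being lower, so their steadiness supports nothing further. Searching the longest transcript alone also found GAGTTGAA in 3 of the 10. Genes called over the transcriptome were 991 with DESeq2 and 871 to 1675 in the fits on 3 samples, where 871 came from dropping sample 2 of Trps1 siRNA, against 1652. With a sample left out the lists gave 4 to 6 called genes for ER to Golgi transport, 0 to 4 for the Sec61 list, and 1 to 5 for signal peptidase and oligosaccharyltransferase. For the Sec61 list DESeq2 called 1 and the fit without a filter 4. With the replicate number as a block, 1 residual degree of freedom was left and 2285 genes were called. Of these, 4 were in the Sec61 list and 5 in the signal peptidase list. The correlation of same-numbered samples' deviations was 0.016. This value cannot tell whether the numbers pair the samples, and the labels do not say. Of 12 named pathway genes, 5 kept their call in every setting; 14 of 144 values lost it and 0 changed sign. The cause of these changes was not tested. Depth limits genes with few reads, such as Sec31b.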
